A study of Mus musculus with 9 samples.

Results

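Oxidative phosphorylation (OXPHOS) is the process by which mitochondria turn the energy of electrons taken from fuel into ATP. Complex I (NADH dehydrogenase) and complex II (succinate dehydrogenase) hand electrons to ubiquinone, complex III passes them to cytochrome c, complex IV (cytochrome c oxidase) passes them to oxygen, and complex V (ATP synthase) uses the proton gradient built on the way. Most subunits are encoded in the nucleus and imported, and the rest come from mitochondrial DNA, so each complex other than complex II is built from both genomes. Neurons spend most of their energy on ion pumping and depend heavily on this pathway, which fails within minutes when blood flow to the cortex stops.

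The genes described here are the nuclear-encoded OXPHOS genes, taken by symbol from the protein-coding genes of the deposited table (symbols beginning with Nduf and one of a, b, c, s or v, the Sdh subunits a to d, and symbols beginning with Uqcr, with Cox4 to Cox8 or with Atp5). The pattern found 94 genes, and 1 of them was left out because it lies in an interval of chromosome 8 that was excluded from the choice. This left 93 identifiers of 54532, with 92 distinct symbols because Atp5o has 2 identifiers. They comprise 35 subunits of complex I, 8 complex I assembly factors, 4 subunits of complex II, 8 of complex III, 20 of complex IV (Ndufa4 and Ndufa4l2 counted here) and 18 of complex V.

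Cortex RNA was sequenced from 3 male mice of each of 3 inbred strains aged 8 to 12 weeks: B6 (C57BL6/J), from which the reference genome was made, C3H (C3H/HeJ), a second classical strain, and WSB (WSB/EiJ), a wild-derived strain. The study asked which genes differ in cortex between strains that suffer infarcts of unequal size. The labels give no surgery, transgene or treatment for any mouse, and strain was the only difference they named. Reads on genes numbered 17651630 to 21562429 per B6 mouse, 19042306 to 19433751 per C3H mouse and 16317439 to 17784118 per WSB mouse. The 13 neuronal markers checked summed to 1504 to 1695 FPKM (reads relative to gene length, scaled by a factor per library) in the 9 libraries. The factor of a library was 0.977 to 1.03 times its reads on genes. After this scaling the median ratio of genes to their geometric mean over libraries was 1.0087 in every library.

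A sequence feature that the choice of genes did not use was the binding motif of NRF1, a transcription factor known to drive many nuclear genes of the respiratory chain. RefSeq promoters (GRCm38.p6) were matched for 73 of the 92 symbols. In the 250 bases before the start, the letters GCGCA, any base and GCGC in a row occurred on either strand in 13 of 73 OXPHOS promoters (17.8%) and in 1045 of 27025 promoters of all genes (3.87%). The ETS motif CCGGAAGT was found in 3 of the 73 (4.11%, against 2.92% of all promoters) and the ERR motif TCAAGGTCA in 1 (1.37%, against 0.366%). The promoters of all genes were taken without a limit on gene type, expression or GC content. They were thus not matched to the OXPHOS genes, and whether the NRF1 share is particular to this pathway was not tested. None of these 3 motifs overlaps another in its letters. The 13 genes were Atp5g2, Atp5h, Atp5k, Cox6a1, Ndufa11, Ndufa5, Ndufa8, Ndufaf4, Ndufb4, Ndufs5, Ndufs6, Sdha and Sdhd. Shown here, with the NRF1 letters in capitals and the strand of the gene, are 60 bases around the match in the 4 most abundant of them whose window lay outside every listed gene, at chr11:115420026-115420085, chr4:123718250-123718309, chr16:37654525-37654584 (each on the minus strand) and chr4:24897945-24898004 (plus strand).
Atp5h: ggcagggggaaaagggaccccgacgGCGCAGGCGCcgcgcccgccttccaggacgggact
Ndufs5: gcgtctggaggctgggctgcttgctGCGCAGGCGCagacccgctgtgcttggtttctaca
Ndufb4: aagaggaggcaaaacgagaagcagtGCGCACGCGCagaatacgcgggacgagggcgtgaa
Ndufaf4: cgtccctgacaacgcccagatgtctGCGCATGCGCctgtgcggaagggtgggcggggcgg
The match, or in Ndufb4 the first of 3, lay 141 to 132 bases before the start in Atp5h, 98 to 89 in Ndufs5, 191 to 182 in Ndufb4 and 113 to 104 in Ndufaf4. The promoters of Ndufaf7, Atp5j2 and Sdhb, which are described further on, held none of the 3 motifs in this window.

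OXPHOS transcripts were abundant in cortex. Averaged over the 9 libraries, 79 of 93 genes reached at least 10 FPKM, 26 reached at least 100 FPKM and 3 stayed under 1 FPKM. Together they took between 1.21% and 1.47% of all reads on genes. Within a strain the coefficient of variation of a gene, averaged over the 3 strains, had a median of 8.48% over the genes. The subunits of complex IV spanned the widest range, from Cox8a at 720 FPKM, a small structural subunit, down to its isoform Cox8c at 0.0125 FPKM. In complex I the highest level was that of Ndufa8 (150 FPKM) and the lowest that of Ndufb2 (3.01 FPKM). The deposited length was 861 bases in Ndufa8 and 5628 in Ndufb2. Gm42420, on the same strand, shared 4022 bases of the span of Ndufb2 and was listed with 0 reads. The effect of this annotation on the level of Ndufb2 was not tested. The assembly factors, which help to build complex I and do not stay in it, ran lower, from Ndufaf2 at 5.54 FPKM to Ndufaf8 at 24.4 FPKM. Complex II ranged from Sdhc (29.2 FPKM), a membrane anchor, to Sdha (105 FPKM), the flavoprotein that oxidises succinate, and complex III from Uqcrc2 (61.8 FPKM), a core protein, to Uqcr10 (205 FPKM). In complex V the catalytic beta subunit Atp5b was highest at 323 FPKM, and the second identifier of Atp5o was listed at 0 in all libraries. FPKM divides by the deposited gene length, which exceeded the longest transcript more than 2-fold in 9 of these genes, among them Atp5b, Cox4i1, Atp5g2 and Atp5g3, so that their levels are understated relative to the others. Another gene shared at least 200 bases at 95% identity or more with 24 of the 93, none of them among the 4 genes called, and 38 overlapped the span of another gene, as Cox4i1 did with Emc8 on the opposite strand (1075 to 1672 reads per library).

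Of the paired isoforms of complex IV, the one known from most tissues made up nearly all transcripts in every library. Cox4i1, a subunit with a regulatory role, had 400, 449 and 448 FPKM in B6, 586, 502 and 590 FPKM in C3H and 400, 445 and 402 FPKM in WSB. Its isoform Cox4i2, known from lung and from hypoxia, had 3.69, 2.20 and 2.14 FPKM in B6, 4.77, 2.62 and 2.94 FPKM in C3H and 1.76, 2.71 and 1.46 FPKM in WSB. Cox4i1 therefore held between 99.1% and 99.6% of the FPKM of the pair.
Cox6a1 stood at 595, 599 and 639 FPKM in B6, 767, 628 and 778 FPKM in C3H and 489, 593 and 542 FPKM in WSB. Its share of the pair with the muscle isoform Cox6a2 ran from 98.1% to 99.1%. Cox6b1 had 233, 239 and 249 FPKM in B6, 327, 266 and 310 FPKM in C3H and 258, 302 and 224 FPKM in WSB, against 2.08 to 4.28 FPKM for the testis isoform Cox6b2. Likewise Cox7b (71.7 to 103 FPKM) far exceeded the testis isoform Cox7b2 (0 to 9 reads per library), and Cox8a (602 to 902 FPKM) exceeded Cox8b (3 to 28 reads) and the testis isoform Cox8c, which had 1 read in a single C3H library. Ndufa4, once assigned to complex I, had 127 to 175 FPKM and Ndufa4l2, a target of hypoxia signalling in mural cells, 1.35 to 2.99 FPKM.

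The Cox7a set was divided between 2 abundant members. Cox7a2 had 127, 128 and 130 FPKM in B6, 155, 148 and 155 FPKM in C3H and 130, 139 and 129 FPKM in WSB. Cox7a2l, a factor that joins complexes III and IV into supercomplexes and is known to carry a deletion in the coding sequence of B6, had 137, 146 and 150 FPKM in B6, 152, 120 and 143 FPKM in C3H and 119, 127 and 103 FPKM in WSB. In B6 its share of the set was 52.3% ± 0.761, in C3H it was 46.7% ± 2.39 and in WSB it was 46.1% ± 1.85 (SD over 3 mice each). Another gene, Gm6969, shares at least 200 bases with Cox7a2l at 95% identity or more and had up to 1552 reads in a library, so reads may be divided between both genes. The muscle isoform Cox7a1 stayed between 2.56 and 5.59 FPKM.
The 3 genes that encode the same mature c subunit of ATP synthase had a stable order by FPKM. Atp5g3 held 59.7% to 63.5% of their summed FPKM, Atp5g1 held 19.5% to 22.7% and Atp5g2 held 16.8% to 19.9% in the 9 libraries. These shares rest on the deposited gene length, which exceeded the longest transcript more than 2-fold in Atp5g2 and Atp5g3, as stated above. The longest transcript has 4715 bases in Atp5g1, 862 in Atp5g3 and 753 in Atp5g2. In reads per library, Atp5g3 had 3299 to 4840, Atp5g1 had 2495 to 4086 and Atp5g2 had 744 to 1096.

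Of the 93 genes, 91 passed the minimum mean of 0.1 FPKM in every comparison, and Cox8c and the second Atp5o identifier did not. Differences are given as log2 fold changes of FPKM + 0.1 and were tested with limma across all genes that passed, adjusted by the Benjamini-Hochberg method, with 0.05 as the threshold. On simulated data this test made more false calls than the threshold allows for, and single calls near it are to be read with that in mind. Because whole cortex was sequenced, fewer cells of a type and less RNA per cell cannot be told apart. The reference genome was made from B6. Whether C3H and WSB reads that differ from it were lost was not tested for any gene.

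In C3H against B6, most OXPHOS genes lay slightly higher in C3H, and few of the single differences passed the test. Of the 91 genes, 71 had a log2 fold change above 0 (78.0%, against 49.6% of all 20602 genes tested), with a median of 0.17 against -0.004 over all genes. Past the threshold were 1 gene that rose (Atp5j2) and 2 that fell (Ndufaf7 and Cox6a2), or 3.30% of the OXPHOS genes tested, where 4.64% of all genes tested were called (2.38% higher and 2.26% lower). Without adjustment, p was under 0.05 for 37 of the 91 (40.7%, against 24.1% of all genes tested), of which 33 were higher. In 39 genes all 3 C3H values exceeded all 3 B6 values (background 14.9%), and in 5, Ndufa12, Ndufc2, Ndufaf1, Ndufaf7 and Cox6a2, all were below (background 14%).
By complex, the median log2 fold change of C3H against B6 was 0.15 over the 35 complex I subunits, 0.28 in complex II, 0.23 in complex III, 0.24 in complex IV and 0.19 in complex V. The 8 assembly factors had a median of -0.03, with 4 above and 4 below 0. In complex V, 16 of 17 genes lay above 0, and in complex III 7 of 8. These medians depended on how the libraries were treated, as described further on.

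**Figure D1:**
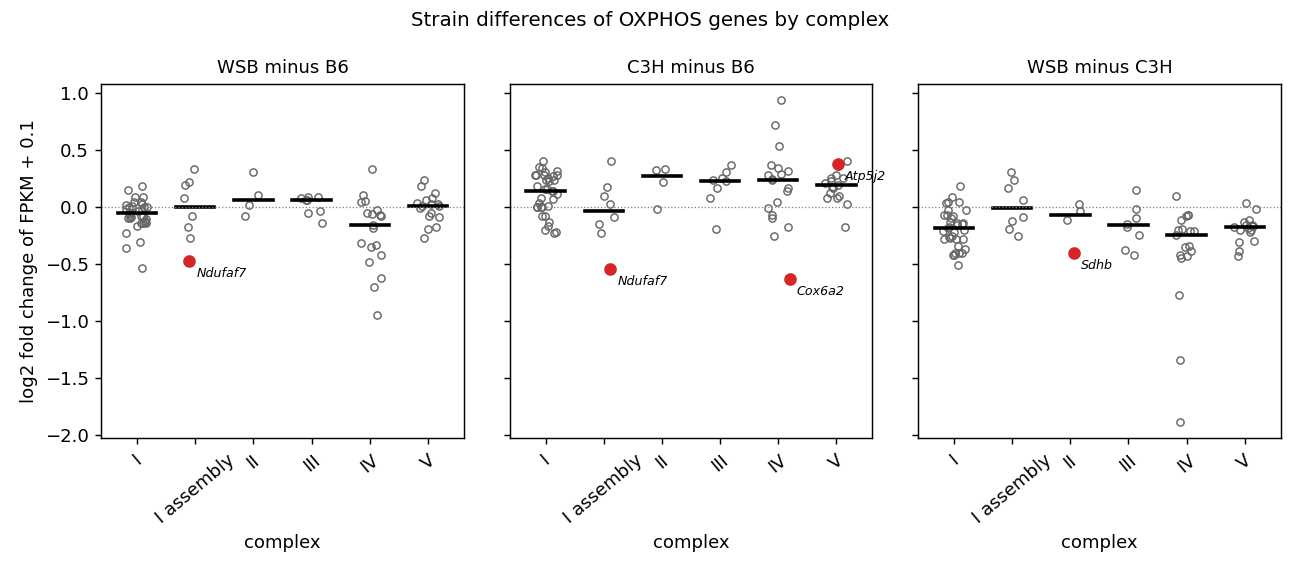
Log2 fold change of FPKM + 0.1 (vertical axis) for the OXPHOS genes tested, by complex (horizontal axis) and comparison (panels). Open circles are genes that did not pass the threshold, filled red circles are the genes that did, and bars are medians. In the C3H minus B6 panel the medians lie above 0 for every complex other than the assembly factors, and the points far below 0 in the WSB minus C3H panel are Cox8b and Cox7b2, which had at most 28 and 9 reads in a library.

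Ndufaf7, a methyltransferase needed for complex I assembly, was the one OXPHOS gene past the threshold against B6 in both other strains. The gene lies on chromosome 17 from 78937136 to 78948052 (plus strand). It had 12.5, 13.5 and 11.8 FPKM in B6, 9.33, 8.38 and 8.16 FPKM in C3H and 8.45, 9.64 and 9.03 FPKM in WSB. All 6 values of C3H and WSB were below the lowest B6 value. The log2 fold change was -0.54 ± 0.09 (SE) in C3H (limma, adjusted p = 0.018) and -0.47 ± 0.09 (SE) in WSB (limma, adjusted p = 0.021), while WSB and C3H differed by 0.07 ± 0.09 (SE, 95% interval -0.15 to 0.28). The comparisons share the B6 mice. In C3H the call was lost without B6 replicate 1 (adjusted p = 0.062), B6 replicate 2 (0.084) or C3H replicate 3 (0.077) and with the GC trend of the libraries removed (log2 fold change -0.42, adjusted p = 0.064, or -0.34 and 0.107 when C3H replicate 2 was also left out). In WSB it was lost without B6 replicate 1 (0.060), B6 replicate 2 (0.095), WSB replicate 1 (0.072) or WSB replicate 3 (0.069), all by limma.

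Cox6a2, the subunit 6A isoform of heart and skeletal muscle, had its highest values in B6. On chromosome 7 from 128205435 to 128206387 (minus strand), it had 9.61, 11.8 and 12.6 FPKM in B6, 6.64, 7.74 and 7.43 FPKM in C3H and 8.75, 5.86 and 6.44 FPKM in WSB. No C3H or WSB value reached the lowest B6 value, and 69 to 182 reads per library stood behind them. The gene fell by 0.63 ± 0.12 (SE) on the log2 scale in C3H (limma, adjusted p = 0.030), and in WSB the difference was -0.69 (adjusted p = 0.059). Its C3H call was lost without B6 replicate 2 (0.119), B6 replicate 3 (0.096), C3H replicate 1 (0.120) or C3H replicate 3 (0.098), and with voom weights (0.054). The WSB difference passed without WSB replicate 1 (-0.86, adjusted p = 0.026, limma) and, with all mice, in 5 other settings, with adjusted p from 0.019 to 0.046. With GC and length trends of the libraries removed, the C3H difference was -1.01. Cox6a2 lies within Itgad on the opposite strand, which had 2 to 9 reads per library. The 4 muscle markers tested in WSB against B6 and the 5 tested in C3H against B6 all lay above 0 and none passed the test, with the 6 listed summing to 7.46 to 9.58 FPKM in B6, 8.68 to 10.6 FPKM in C3H and at least 9.44 FPKM in WSB. Which cells the Cox6a2 reads came from was not tested.

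Atp5j2, subunit f in the membrane part of ATP synthase, was the one OXPHOS gene that rose in C3H. It lies on chromosome 5 from 145183698 to 145192062 (minus strand) and had 45.3, 48.9 and 49.1 FPKM in B6, 65.1, 59.1 and 62.5 FPKM in C3H and 55.7, 56.5 and 51.0 FPKM in WSB. The 3 strains did not overlap, with WSB between the others. The log2 fold change was 0.38 ± 0.07 (SE) in C3H against B6 (limma, adjusted p = 0.029), 0.19 in WSB against B6 (adjusted p = 0.195) and -0.19 in WSB against C3H (adjusted p = 0.171). The call was lost on leaving out B6 replicate 1 (0.088), B6 replicate 2 (0.101), B6 replicate 3 (0.079), C3H replicate 1 (0.119) or C3H replicate 3 (0.113), all by limma.

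Complex II has no subunit from mitochondrial DNA and is also an enzyme of the citric acid cycle. Its iron-sulfur subunit Sdhb, on chromosome 4 from 140961203 to 140979193 (plus strand), had 59.2, 61.5 and 64.2 FPKM in B6, 77.2, 73.3 and 81.6 FPKM in C3H and 54.5, 63.0 and 58.4 FPKM in WSB. All C3H values were above those of both other strains, whose values overlapped. The log2 fold change was -0.40 ± 0.08 (SE) in WSB against C3H (limma, adjusted p = 0.033) and 0.33 in C3H against B6 (adjusted p = 0.052).
The WSB against C3H call was lost without C3H replicate 1 (0.118), C3H replicate 3 (0.132), WSB replicate 1 (0.121) or WSB replicate 3 (0.095). Sdhb in C3H against B6 passed without C3H replicate 2 (0.37, adjusted p = 0.032, limma). With all mice it passed in 5 other settings, with limma adjusted p from 0.032 to 0.047, but the difference was 0.01 with GC and length trends removed. The anchor subunit Sdhc was above B6 in all mice of both other strains, with 23.6, 25.6 and 25.8 FPKM in B6, 32.1, 29.3 and 33.5 FPKM in C3H and 30.2, 33.3 and 29.6 FPKM in WSB. Its differences of 0.31 in WSB (limma, adjusted p = 0.058) and 0.34 in C3H (adjusted p = 0.059) did not pass, although the C3H one did without C3H replicate 2 (0.39, adjusted p = 0.029), and with all mice both passed in several other settings, such as all 3 strains in one fit (adjusted p = 0.041 in WSB and 0.032 in C3H) and after removal of GC and length trends (0.024 and 0.025). Sdhc is named here after its values were seen. Sdha, in contrast, stayed at 102 to 111 FPKM in all 9 libraries, and its 95% interval was -0.16 to 0.14 for C3H against B6 and -0.13 to 0.17 for WSB against B6.

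**Figure D2:**
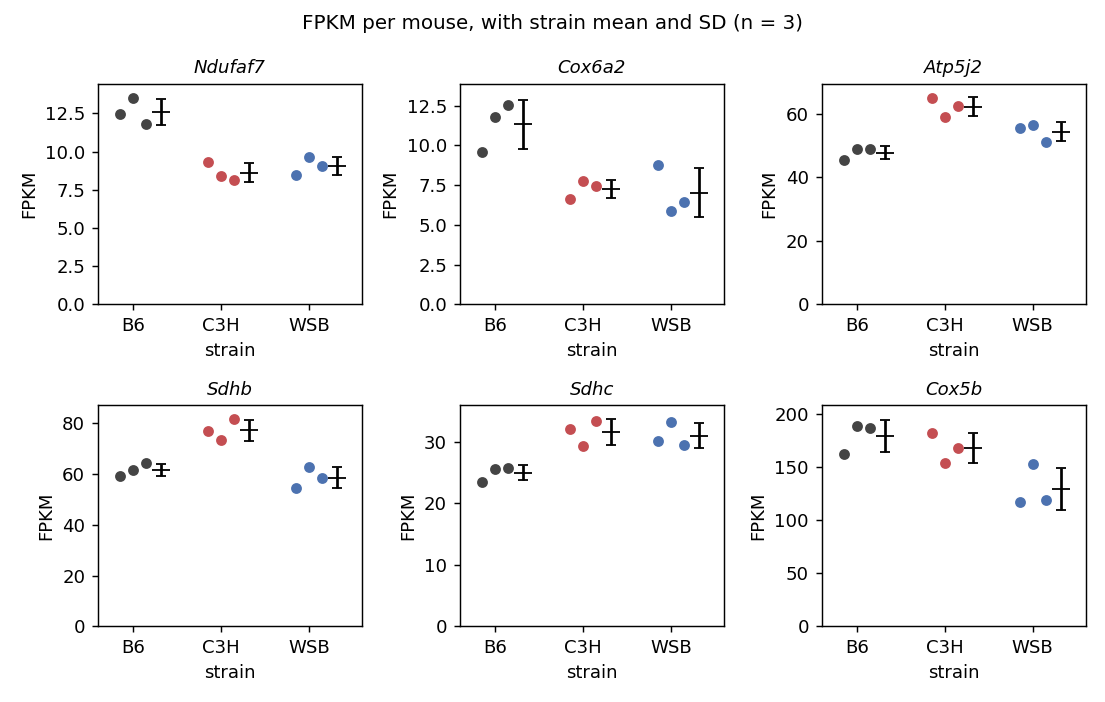
FPKM in each mouse (vertical axis, from 0) by strain (horizontal axis) for 6 OXPHOS genes. Coloured points are mice, and the black dash and bar give the strain mean and SD (n = 3). Ndufaf7 and Cox6a2 are highest in B6, Sdhb is highest in C3H, Atp5j2 and Sdhc are lowest in B6, and Cox5b has its 3 lowest values in WSB.

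In WSB against B6, the OXPHOS genes as deposited were nearly balanced about 0, which did not hold once GC and length trends were removed, as described further on. Of 91 genes, 38 had a log2 fold change above 0 and 53 below, with a median of -0.05 against 0.002 over all 20746 genes tested. Only Ndufaf7 passed the threshold, or 1.10% of the genes where 5.9% of all genes tested were called (2.81% higher and 3.09% lower), and 12 had an unadjusted p under 0.05 (13.2%, against 20.4% of all genes tested). All WSB values exceeded all B6 values in 7 genes, Ndufaf5, Ndufaf8, Sdhc, Sdhd, Atp5d, Atp5j2 and Atp5s (background 13%). They lay below in 9 (background 13.1%), of which 5 were in complex IV: Cox5b, Cox6a1, Cox6a2, Cox6c and Cox7a2l. Complex IV had the lowest median, -0.15, with 15 of 19 genes below 0, beside -0.05 in complex I, 0.07 in complexes II and III, and 0.02 in complex V. Cox5b, a subunit on the matrix face of complex IV, had 162, 188 and 187 FPKM in B6, 182, 154 and 168 FPKM in C3H and 117, 153 and 119 FPKM in WSB. Its difference of -0.48 ± 0.12 (SE) in WSB did not pass in this fit (limma, adjusted p = 0.070) and passed without WSB replicate 2 (-0.60, adjusted p = 0.025), and with all mice it passed in 4 other settings, with adjusted p from 0.0046 (GC and length trends removed) to 0.046 (protein-coding genes only). It too was singled out after its values were seen.

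In WSB against C3H, 78 of 91 genes had a log2 fold change below 0, and the median was -0.18 against 0.009 over all 20607 genes tested. Sdhb was the one gene called (1.10%, background 5.74%, of which 2.61% higher and 3.13% lower), with 30 at an unadjusted p under 0.05 (29 of them lower, while 23.8% of all genes tested had such a p). All WSB values were below all C3H values in 28 genes (background 14.4%) and above them in 2, Ndufc2 and Ndufaf5 (background 14.2%). The medians were -0.18 in complex I, -0.07 in complex II, -0.16 in complex III, -0.25 in complex IV and -0.17 in complex V, with -0.01 for the assembly factors. Both comparisons with C3H rest on the same C3H mice. In 21 of the 91 genes every C3H value exceeded every B6 and WSB value (6.4% of the 19773 genes tested in both comparisons did), among them Cox4i1, Cox8a, Cox7a2, Uqcrc1, Uqcrq, Ndufv1 and Atp5a1, and in 1, Ndufc2, every C3H value was below (background 5.47%, with 73.1, 67.3 and 68.5 FPKM, against 75.3, 82.7 and 84.5 in B6 and 73.2, 90.1 and 75.2 in WSB).

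The general shift was uneven among mice of one strain. Taking each gene's log2(FPKM + 0.1) relative to its own mean over the 9 libraries, the mean over the 91 genes was -0.09, 0.01 and 0.003 in the B6 mice, 0.19, 0.02 and 0.15 in C3H and -0.13, 0.06 and -0.21 in WSB. The strain means, with SD over 3 mice, were -0.02 ± 0.06, 0.12 ± 0.09 and -0.09 ± 0.14. C3H replicate 2 was below WSB replicate 2 and close to B6 replicates 2 and 3, while C3H replicates 1 and 3 were above every other library. Summed over all 93 genes, the levels were 7544, 8107 and 8343 FPKM in B6, 9612, 8369 and 9212 FPKM in C3H and 7378, 8542 and 7204 FPKM in WSB.

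**Figure D3:**
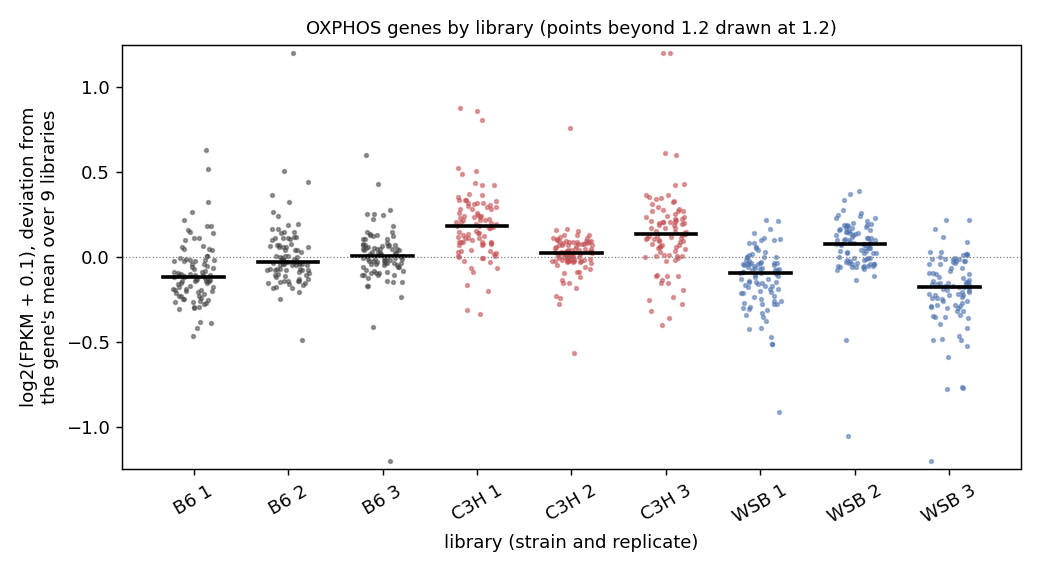
Deviation of log2(FPKM + 0.1) of each OXPHOS gene from its own mean over the 9 libraries (vertical axis), by library (horizontal axis, strain and replicate). Points are the 91 genes tested, bars are medians, and points beyond 1.2 are drawn at 1.2. The medians of C3H replicates 1 and 3 are the highest, that of C3H replicate 2 is near 0, and that of WSB replicate 3 is the lowest.

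Whole libraries also differed in their relation to GC content and length, in part with this shift. Over the 12995 genes whose mean reached 1 FPKM, the Spearman correlation across genes between deviation and GC content was 0.51 in C3H replicate 1, 0.53 in C3H replicate 3 and -0.18 in C3H replicate 2, and it was -0.47 in B6 replicate 1, -0.37 in WSB replicate 1 and -0.11 in WSB replicate 3, where the OXPHOS genes stood lowest. Removal of the GC trend alone left the library means of the OXPHOS genes nearly where they were, at 0.18 and 0.14 in C3H replicates 1 and 3 and -0.21 in WSB replicate 3. Over the same genes the Spearman correlation with transcript length was 0.29, 0.12 and 0.13 in B6 replicates 1 to 3. It was -0.30, -0.04 and -0.30 in the C3H mice and 0.14, -0.12 and 0.07 in the WSB mice. Genes are not independent replicates, and these values describe the libraries. The OXPHOS genes have short transcripts, with a median of 1046 bases against 3231 over those 12995 genes, and in WSB replicate 3 the 46 shorter OXPHOS genes (360 to 1046 bases) stood at -0.30 and the 45 longer ones (1082 to 6310 bases) at -0.12. After each library's GC trend was removed, the median of C3H against B6 in complexes I to V ran from 0.11 to 0.19. With GC and length trends removed it was -0.10 in complex I, 0.01 in complex II, -0.04 in complex III, -0.05 in complex IV and 0.07 in complex V. The median over the 91 genes then changed from 0.17 to -0.05 in C3H against B6 and from -0.05 to -0.21 in WSB against B6, with 12 genes called lower and 3 higher in C3H and 22 lower and 1 higher in WSB, where 5.996% and 7.88% of all genes tested were called with the same trends removed. The direction of the general shift between C3H and B6 thus depended on this choice.
Between WSB and C3H the medians stayed below 0 after both removals, from -0.26 in complex IV to -0.11 in complex V, apart from complex II at -0.005 and the complex I assembly factors at -0.02, which lay close to 0. Without C3H replicate 2, 17 genes were called in C3H against B6, 15 higher and 2 lower, and 14 in WSB against C3H, while calls over all genes also went up, to 11.2% and 9.71% of those tested.

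**Figure D4:**
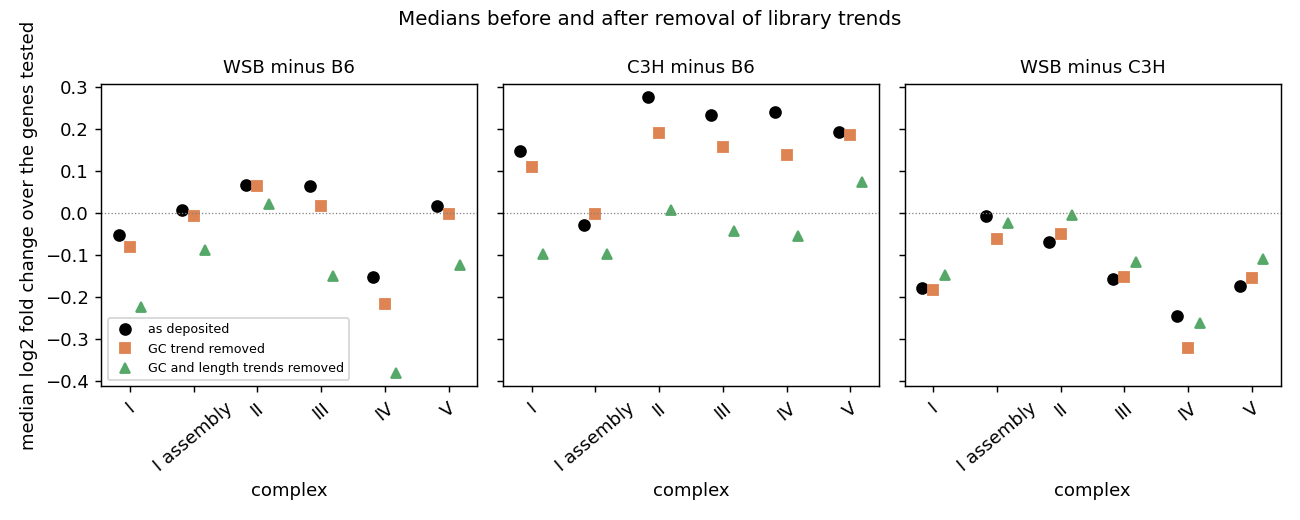
Median log2 fold change over the OXPHOS genes tested (vertical axis), by complex (horizontal axis) and comparison (panels), with the deposited values, after removal of each library's GC trend, and after removal of GC and length trends. In the C3H minus B6 panel the triangles lie between -0.10 and 0.07, and the circles of complexes I to V between 0.15 and 0.28, and in the WSB minus C3H panel all 3 sets lie at or below 0.

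Markers of other cells also differed. The 5 blood markers summed to 632 to 1010 FPKM in C3H, against 217 to 254 FPKM in B6 and 249 to 329 FPKM in WSB, and the 8 oligodendrocyte markers summed to 465 to 666 FPKM in WSB, against 870 to 1096 FPKM in B6 and 798 to 1068 FPKM in C3H. The 8 microglial markers summed to 164 to 178 FPKM in WSB, below the 198 to 206 FPKM of B6 and the 184 to 218 FPKM of C3H. The 8 astrocyte markers stayed between 717 and 811 FPKM and the 10 endothelial and mural markers between 34.1 and 48.5 FPKM in all libraries, with none of any list at 0 throughout. The 6 choroid plexus markers ran from 64.4 to 765 FPKM among the B6 mice alone. The part of these cells in the OXPHOS values was not tested.

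In the deposited values, the 13 OXPHOS genes of the mitochondrial genome lay lower, not higher, in C3H. Their mean deviation was 0.44, 0.22 and 0.08 in B6, -0.32, -0.41 and -0.60 in C3H and 0.34, 0.22 and 0.02 in WSB, so every C3H library was below every other library. Their summed level was 15798 to 17595 FPKM in C3H, 20025 to 23764 FPKM in B6 and 18454 to 21895 FPKM in WSB. The GC trends of the libraries, described above, were not removed from any value given for these genes. The median log2 fold change of C3H against B6 was -0.45, with 3 of the 13 genes called lower (mt-Nd3, mt-Nd4l and mt-Nd5) and 1 higher (mt-Co3), where 4.64% of all genes were called. In WSB against B6, 2 were called higher (mt-Nd4l and mt-Co2) and 1 lower (mt-Nd3), and the median was -0.04, and in WSB against C3H 3 were called higher and none lower (5.9% and 5.74% of all genes called). The fall of mt-Nd3, a complex I subunit, was the steepest, from 87.3 ± 12.8 FPKM in B6 to 5.88 ± 1.23 FPKM in C3H and 8.63 ± 2.25 FPKM in WSB (SD over 3 mice each). Levels among these genes were far apart, with mt-Co1 at 7922 FPKM and mt-Co2 at 40.3 FPKM in B6, although both encode subunits of the same complex. The search for near-identical genes covered the nuclear-encoded OXPHOS genes only. Whether reads shared with near-identical copies affected the levels of these 13 genes, mt-Nd3 among them, or their strain differences was not tested.

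**Figure D5:**
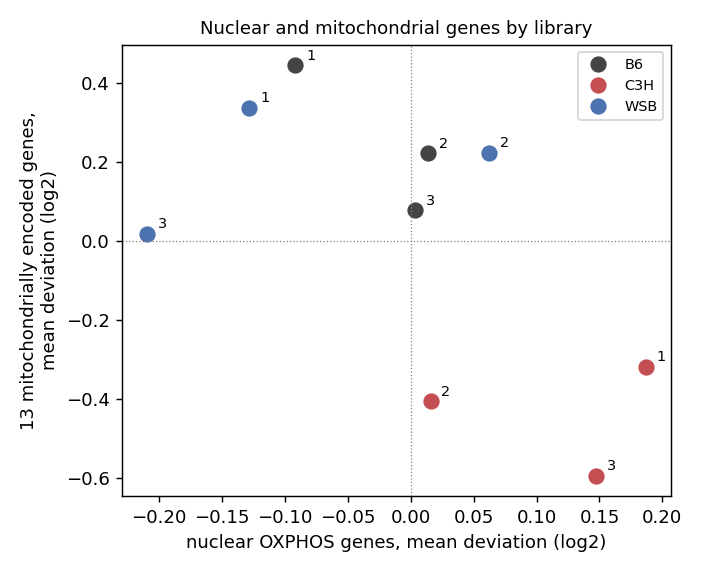
Mean log2 deviation of the 91 nuclear OXPHOS genes (horizontal axis) and of the 13 mitochondrially encoded genes (vertical axis) from their means over 9 libraries. Each point is a library, coloured by strain and numbered by replicate. The 3 C3H libraries lie between -0.60 and -0.32 on the vertical axis, and all other libraries lie above 0 on it.

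Assembly factors outside the naming pattern included genes with larger differences. Of 43 tested, 4 were called higher and 2 lower in WSB against B6, 4 higher and 1 lower in C3H against B6, and 2 higher and 5 lower in WSB against C3H, beside the 5.9%, 4.64% and 5.74% of all genes called in these comparisons. Cox18, which inserts a complex IV subunit into the inner membrane, rose from 3.87 ± 0.63 FPKM (SD, n = 3) in B6 to 7.88 ± 0.558 in C3H and 7.12 ± 0.141 in WSB. Lyrm7, which guards the iron-sulfur protein of complex III before insertion, fell from 3.64 ± 0.097 FPKM (SD, n = 3) in B6 to 1.54 ± 0.420 in C3H. Cmc2, a factor of complex IV, fell from 6.67 ± 0.642 FPKM (SD, n = 3) in B6 to 3.76 ± 0.196 in WSB, while the copper chaperone Cox17 rose from 0.924 ± 0.095 to 1.71 ± 0.190 FPKM. Coa4 and Cox14 were called higher in C3H, by 0.96 and 0.50 on the log2 scale.

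Among 16 electron and metabolite carriers, 1 was called higher in WSB and 3 in C3H against B6, with none lower, where 5.9% and 4.64% of all genes were called. Ckmt1, the mitochondrial creatine kinase, rose in both, from 82.9 ± 6.76 FPKM (SD, n = 3) in B6 to 110 ± 7.44 in C3H and 111 ± 5.73 in WSB. In C3H alone of the 2 strains, the uncoupling protein gene Ucp2 (1.13 on the log2 scale) and Etfb (0.62), a subunit of electron transfer flavoprotein, were called against B6, and both were called lower in WSB against C3H. None of 18 genes of the citric acid cycle and pyruvate dehydrogenase, a list that leaves out the subunits of complex II, was called by limma in any comparison. Of 18 regulators of mitochondrial biogenesis, Tfb2m, a mitochondrial transcription factor, was the one gene called, lower in WSB against B6 by -0.58 on the log2 scale. The counts for all these lists stand beside 5.9% of all genes called in WSB against B6, 4.64% in C3H against B6 and 5.74% in WSB against C3H.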

How the data were processed

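The authors used Cutadapt to trim paired-end reads, HTSeq to count them per gene and DESeq2 to test strains, and the submitters' processing notes also name STAR. The genome build and the versions are not given in the sources used here. The authors deposited FPKM values per gene and mouse. Of 54532 identifiers, 54409 were found in GENCODE M21 (GRCm38) and 53499 had the same coordinates, among them 87 of the 93 OXPHOS genes. Multiplied by gene length, 100% of FPKM values in each library were whole multiples (within 0.01) of a unit that stands for 1 read, and read numbers were taken from this. Mice of one strain differed beyond sampling noise, with a chi-square of 9.27 to 29.7 per gene. No column of values was left out.

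Strains were compared 2 at a time by limma 3.58.1 in R 4.3.3 (two-sided, lmFit and eBayes with trend) on log2(FPKM + 0.1), for genes whose mean over the 6 libraries reached 0.1 FPKM, with Benjamini-Hochberg adjustment over all genes tested and a threshold of 0.05. Library trends were natural splines (5 degrees of freedom) on GC content, or GC content and length, of the longest transcript, fitted over genes whose mean reached 1 FPKM. The fit was checked on simulated data, where it missed most of the smallest changes made and called more unchanged genes than the threshold allows for. Genes near-identical to the nuclear-encoded OXPHOS genes were searched with blastn 2.17.0, and figures were drawn with matplotlib 3.10.9 in Python 3.11.15.

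The OXPHOS genes, the other gene lists and the tests were chosen with earlier results of these data known. The text names every gene past the threshold, the highest and lowest gene of each complex by mean FPKM, all members of the isoform sets and the genes below the minimum. From the other lists it names at most 4 genes past the threshold per comparison. Sdhc, Cox5b, Ndufc2 and the genes named for not overlapping between strains were chosen after their values were seen.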

Additional observations from a re-analysis of the deposited data

How the results depend on the processing

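The number of OXPHOS genes called depended on the processing, while the median log2 fold change kept its direction except where stated here. In C3H against B6 (3 called with all settings as in the report), 5 were called after rescaling to total reads, 9 with all 3 strains in one fit, 8 with voom weights, 7 with protein-coding genes only, 6 with the GC trend removed, 15 with GC and length trends removed, 0 with eBayes without a trend, and 9 with the GC trend removed and without C3H replicate 2, a setting chosen after seeing the data. In WSB against B6 (1 called), 2 were called with a filter of 1 FPKM, 2 after rescaling to total reads, 4 with one fit, 4 with voom weights, 4 with protein-coding genes only, 3 with the GC trend removed, 23 with GC and length trends removed and 0 with eBayes without a trend. In WSB against C3H (1 called), 0 were called with no filter, 3 with a filter of 1 FPKM, 9 with one fit, 10 with voom weights, 6 with protein-coding genes only, 4 with the GC trend removed, 6 with GC and length trends removed, 0 with eBayes without a trend, and 4 with the GC trend removed and without C3H replicate 2. Leaving out 1 mouse at a time gave 0 to 17 calls in C3H against B6, 0 to 4 in WSB against B6 and 0 to 14 in WSB against C3H, with the highest counts without C3H replicate 2, WSB replicate 2 and C3H replicate 2. Calls over all genes moved too, to 11.2% of genes in C3H against B6 and 9.71% in WSB against C3H without C3H replicate 2, against 2.45% and 2.29% without C3H replicate 1. With all mice and no block they ranged over the settings from 2.54% to 7.22% in C3H against B6, from 3.43% to 7.88% in WSB against B6 and from 3.08% to 8.53% in WSB against C3H. The cause of these changes was not tested.

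The median log2 fold change moved by more than the spread between mice (pooled SD 0.101) only with GC and length trends removed, to -0.055 in C3H against B6 and -0.212 in WSB against B6. Without 1 mouse it ranged from 0.13 to 0.22 in C3H against B6, from -0.12 to 0.02 in WSB against B6 (above 0 only without WSB replicate 3) and from -0.24 to -0.15 in WSB against C3H. With GC and length trends removed, Cox4i1 in C3H against B6 changed to -0.037 (limma, adjusted p = 0.71). Replicate numbers did not pair the mice, since the correlation of same-numbered deviations ran from -0.16 to 0.04. With the replicate number as a block, 1 gene was called in C3H against B6 and 0 in WSB against C3H, and with the block and the GC trend removed 1 in C3H against B6, 2 in WSB against B6 and 0 in WSB against C3H. Over all genes, 2.33% were called with the block in C3H against B6 and 2.58% in WSB against C3H. With the GC trend also removed, the shares were 2.87% in C3H against B6, 3.86% in WSB against B6 and 4.05% in WSB against C3H.

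With 3 mice a strain, a difference of -0.69 (Cox6a2 in WSB against B6) did not pass. The genes with few reads (Cox8b, Cox8c, Cox7b2) allow no statement on strain differences at this depth.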

Other observations

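Ribosomal protein genes, which are also short and abundant, lay in the same direction as the OXPHOS genes in both comparisons with C3H. Over 83 cytosolic ribosomal protein genes tested, the median log2 fold change was 0.03 in WSB against B6, 0.18 in C3H against B6 and -0.21 in WSB against C3H, beside -0.05, 0.17 and -0.18 over the 91 OXPHOS genes. Over 77 mitochondrial ribosomal protein genes the medians were 0.05, 0.19 and -0.10. The citric acid cycle list had medians of 0.10 in C3H against B6 and -0.11 in WSB against C3H. In the same order the carriers had 0.08 and -0.08, and the assembly factors outside the naming pattern 0.11 and -0.09. The biogenesis regulators went the other way, with -0.07 and 0.14. Whether length or abundance had a part in these directions was not tested. In C3H against B6, 2 cytosolic ribosomal protein genes were called higher and 6 lower, and 4 mitochondrial ones were called higher and 3 lower, where 4.64% of all genes were called. The comparisons share mice, and the lists were not tested as groups.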
